A study of Mus musculus with 6 samples.

Results

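The set described here covers iron uptake and mitochondrial iron transport, and also holds the iron exporter Slc40a1 and the glycine carrier Slc25a38. Its 9 genes were followed while DMSO drove the differentiation of MEL cells, a mouse leukemia line blocked early in the red cell lineage. They are the transferrin receptors Tfrc and Tfr2, the endosomal transporter Slc11a2 and reductase Steap3, the mitochondrial carriers Slc25a37, Slc25a28 and Slc25a38, the mitochondrial transporter Abcb10 and the exporter Slc40a1. The set was named by gene symbol, and each gene was read from its RefSeq transcript with the highest mean count. All 9 had a counted transcript, among 23896 gene symbols with one. Stranded mRNA-seq libraries were made from 2 biological replicates on each of days 0, 2 and 4, 6 libraries in all, with day 0 untreated and the later days grown with 2% DMSO. Every culture was of the same line in minimal essential medium with fetal bovine serum. No library came from cells kept without DMSO to day 2 or day 4, so DMSO and time in culture cannot be told apart. As a leukemic line, MEL cells model the steps of terminal differentiation in culture and not those in marrow.

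Iron reaches erythroid cells on transferrin, which binds its receptor at the surface and is taken into endosomes. There the iron is released, reduced by STEAP3 and carried to the cytosol by DMT1, the product of Slc11a2. Mitoferrins carry it across the inner mitochondrial membrane, where ferrochelatase inserts it into protoporphyrin to make heme. When iron is scarce, iron regulatory proteins bind hairpins called iron-responsive elements (IREs). A hairpin in a 3′ UTR, as in the Tfrc mRNA, then protects the transcript, whereas a hairpin in a 5′ UTR, as in the ferroportin (Slc40a1) mRNA, blocks its translation.

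The hairpins are shown because they are the known route by which iron acts on 3 of these mRNAs. The GENCODE transcripts (GRCm38) matched to each gene were searched on the sense strand for an unpaired C, then 5 bases, the 6-base loop CAGTGN and 5 bases that pair with the 5 before the loop (G with T allowed). Such a match lay in a 3′ UTR of 0.64% of 22500 coding genes and in a 5′ UTR of 0.138%. Tfrc held 4 matches in its 3′ UTR and Slc40a1 held 1 in its 5′ UTR, and the other 7 genes held none. The loop CAGAGN, and the loop CAGTGN followed by 6 bases of which 1 stays unpaired, were tried after this result was seen. The former added another Tfrc site and 1 site in the 3′ UTR of Abcb10 (3′ UTR matches in 0.658% of coding genes). The latter added 1 site in Slc11a2 (1.55% of coding genes), which lies in transcript NM_001146161 and not in NM_008732. A match is a description of these letters and not a shown site of binding. Slc40a1 was read from 1 counted transcript, so any form of its mRNA with another 5′ end was not told apart. In the sequences below, 5′ to 3′ on the strand of the gene, capitals mark the loop, and the name gives the place in GRCm38.
Tfrc A, chr16:32631160-32631189, plus strand: atttatcagtgaCAGAGTtcactataaata
Tfrc B, chr16:32631219-32631248, plus strand: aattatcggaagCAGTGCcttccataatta
Tfrc C, chr16:32631598-32631627, plus strand: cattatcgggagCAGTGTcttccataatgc
Tfrc D, chr16:32631663-32631692, plus strand: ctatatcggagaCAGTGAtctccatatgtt
Tfrc E, chr16:32631710-32631739, plus strand: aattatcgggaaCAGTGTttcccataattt
Slc11a2, chr15:100395152-100395181, minus strand: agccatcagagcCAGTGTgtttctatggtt
Slc40a1, chr1:45925464-45925493, minus strand: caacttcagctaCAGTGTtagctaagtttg

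The deposited values are unnormalized read counts per RefSeq transcript, which summed to between 35294930 and 53899476 per library. Values are given below as CPM, the usual counts-per-million scale, with library totals scaled by edgeR's TMM factors. Of 10 erythroid marker genes, 9 were higher at day 4 than at day 0 and Klf1 was lower. Their summed level, in CPM without the scaling factors, went from 855 to 917 at day 0 to between 17993 and 19522 at day 4. The macrophage and mast cell lists summed to at most 6.31 and 2.17 CPM in any library, and the T cell list to at most 0.425, with Adgre1, Itgam and Cd3e among the markers too low to test. The 4 megakaryocyte genes summed to between 225 and 252 CPM at days 0 and 2 and to between 555 and 612 at day 4, where Itga2b and Gp9 were higher and Pf4 and Ppbp lower than at day 0. The part of these markers in the results was not tested. In bulk libraries of this kind, a lower or higher level cannot be told apart from fewer or more cells that express the gene.

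Between day 0 and day 4 the 9 genes of the set changed in both directions. Of the 9, 7 rose (Slc25a37, Abcb10, Tfrc, Slc40a1, Slc25a28, Tfr2 and Slc11a2) and 2 fell (Steap3 and Slc25a38), at an adjusted p below 0.05 in edgeR's quasi-likelihood test over 18351 transcripts. All 9 were therefore called, where 72.3% of all tested transcripts were called (36.2% higher and 36.1% lower). By day 2, 6 of the 9 were called, 5 higher and 1 lower, against 63.4% of tested transcripts (31.9% higher, 31.6% lower). From day 2 to day 4, 7 were called, 4 higher and 3 lower, against 31.0% (14.6% higher, 16.4% lower). This last count was 2 without day 2 replicate 1, 3 without day 2 replicate 2, and 3 without day 4 replicate 2. As log2 fold changes, the 9 genes had medians of 0.34, 0.11 and 0.60 for day 2 against day 0, day 4 against day 2 and day 4 against day 0, and all tested transcripts had medians of 0.020, -0.0031 and -0.00044. With scaling by total counts, which moved the latter to 0.22, -0.09 and 0.11, the members split 5 higher and 0 lower by day 2 and 7 higher and 1 lower over 4 days. The comparisons share libraries, so their counts are not separate evidence.

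**Figure D1:**
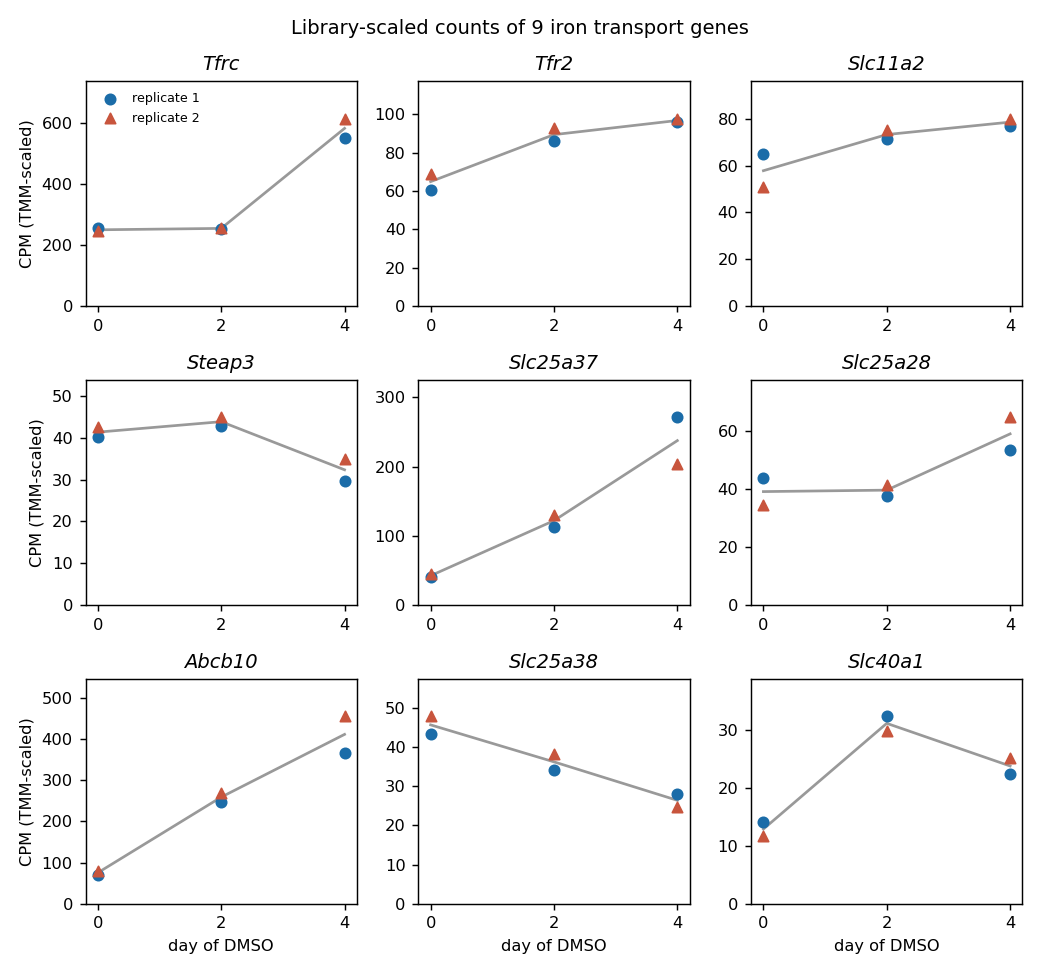
Library-scaled counts (CPM, vertical axis from 0, a different range in each panel) of the 9 genes on days 0, 2 and 4 of DMSO, with a point per library (circle, replicate 1; triangle, replicate 2) and a line through the mean of each day. Slc25a37 and Abcb10 climbed on both steps, Tfrc stayed between 245 and 256 CPM until day 2 and reached 550.2 and 614 CPM at day 4, and Slc40a1 was highest at day 2.

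Changes are given as log2FC, the log2 fold change between days, with its standard error (SE). Tfrc (NM_011638, chromosome 16 from 32608920 to 32632794), the receptor that takes up transferrin-bound iron, rose in the later step. It had 255 and 245 CPM in the day 0 libraries, 254 and 256 at day 2, and 550.2 and 614 at day 4. The day 0 and day 2 libraries overlapped, and both day 4 libraries lay above all others. Its log2FC was 0.03 for day 2 against day 0 (SE 0.11, edgeR adjusted p = 0.851) and 1.19 from day 2 to day 4 (SE 0.12, edgeR adjusted p = 0.000144), a 2.28-fold rise. Leaving out single libraries moved the latter between 1.11 and 1.27. Among all tested transcripts, the rise of Tfrc stood at the 98.4 percentile of log2FCs from day 2 to day 4.

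Tfr2 (NM_001289509, chromosome 5 from 137569869 to 137587479) encodes the second transferrin receptor, which in erythroid cells also associates with the erythropoietin receptor. Its rise was called in the earlier step alone. It went from 60.7 and 69.1 CPM at day 0 to 86.1 and 92.6 at day 2, and had 95.8 and 97.7 CPM at day 4. No library of one day overlapped with those of another. The log2FC was 0.46 by day 2 (SE 0.11, edgeR adjusted p = 0.00303) and 0.11 from day 2 to day 4 (SE 0.11, edgeR adjusted p = 0.442). Over 4 days it rose by 0.58 (SE 0.11, edgeR adjusted p = 0.00052). Its 4 counted transcripts differed by at most 6 counts in any library and are not separate measurements.

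Slc11a2 (NM_001146161, chromosome 15 from 100392563 to 100423002), whose product DMT1 moves ferrous iron out of the endosome, rose modestly. The libraries held 64.9 and 50.7 CPM at day 0, 71.3 and 75.1 at day 2, and 77.0 and 80.0 at day 4, and the days did not overlap, although the day 0 pair lay farthest apart. Its log2FC was 0.34 by day 2 (SE 0.12, edgeR adjusted p = 0.0325), 0.10 from day 2 to day 4 (edgeR adjusted p = 0.571) and 0.44 over the 4 days (SE 0.12, edgeR adjusted p = 0.00767). The call by day 2 was lost without day 0 replicate 2 (0.17, edgeR adjusted p = 0.173), day 2 replicate 1 (0.38, 0.0957), day 2 replicate 2 (0.31, 0.168) or day 4 replicate 2 (0.34, 0.0522), and with only the days compared in the fit (0.33, 0.0555). The call over 4 days was lost without day 4 replicate 2 (0.41, edgeR adjusted p = 0.0518), and its value was 0.26 without day 0 replicate 2 and 0.63 without day 0 replicate 1.

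The other counted Slc11a2 transcript, NM_008732, shares 1708 exonic bases with NM_001146161 and ends in a different last exon. The stretch found only in NM_001146161 spans 2707 bases and holds the hairpin printed above. Transcript NM_008732 had 56.1 and 44.1 CPM at day 0, 74.7 and 79.2 at day 2, and 75.9 and 77.6 at day 4. It rose by 0.62 by day 2 (SE 0.12, edgeR adjusted p = 0.0012). In counts, NM_001146161 minus NM_008732 was 360 and 326 in the day 0 libraries, -142 and -202 at day 2, and 38 and 109 at day 4. The 3 days did not overlap in this difference or in the ratio of counts, which was 1.16 and 1.15, 0.954 and 0.948, and 1.01 and 1.03. Reads on shared exons enter both counts, so the bases found in a single transcript bear on the difference, which was not tested.

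Steap3 (NM_001085409, chromosome 1 from 120224386 to 120271082), the endosomal reductase that turns ferric into ferrous iron, had a fall called in the later step alone. It had 40.2 and 42.4 CPM at day 0, 42.8 and 44.9 at day 2, and 29.7 and 35.0 at day 4, with both day 4 libraries below all others. Its log2FC was 0.08 by day 2 (SE 0.12, edgeR adjusted p = 0.547), -0.44 from day 2 to day 4 (SE 0.12, edgeR adjusted p = 0.0175) and -0.35 over the 4 days (SE 0.12, edgeR adjusted p = 0.0186). The late fall was not called without day 2 replicate 1 (-0.47, edgeR adjusted p = 0.105), day 2 replicate 2 (-0.41, 0.129) or day 4 replicate 1 (-0.33, 0.151). The 4-day fall was not called without day 4 replicate 1 (-0.24, edgeR adjusted p = 0.186) or with scaling by total counts (-0.24, 0.0838). Of the pair acting on endosomal iron, Slc11a2 was thus higher and Steap3 lower at day 4 than at day 0.

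Slc25a37 (NM_026331, chromosome 14 from 69241848 to 69285112) encodes mitoferrin 1, the iron carrier of the inner mitochondrial membrane that developing red cells depend on. With Abcb10, it had one of the 2 largest rises of the 9 genes over 4 days. The libraries held 40.2 and 44.5 CPM at day 0, 113 and 131 at day 2, and 271 and 204 at day 4, so each day lay above the one before it and the day 4 pair lay farthest apart. By log2FC it rose 1.53 by day 2 (SE 0.15, edgeR adjusted p = 7.9e-06) and 0.96 from day 2 to day 4 (SE 0.14, edgeR adjusted p = 0.00102). Over the 4 days it rose 5.61-fold (log2FC 2.49, SE 0.15, edgeR adjusted p = 1.63e-07), at the 97.0 percentile of tested transcripts, and by 2.27 to 2.67 with single libraries left out. Without day 4 replicate 1 it lay below Abcb10 (2.27 against 2.60), and the order of the pair is not resolved.

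Slc25a28 (NM_145156, chromosome 19 from 43663801 to 43674881) encodes mitoferrin 2, the carrier found in most other tissues. It had 43.7 and 34.6 CPM at day 0 and 37.7 and 41.6 at day 2, and rose to 53.4 and 64.8 CPM at day 4. The day 0 and day 2 libraries overlapped, and both day 4 libraries lay above them. The gene had a log2FC of 0.02 by day 2 (SE 0.14, edgeR adjusted p = 0.911) and 0.58 from day 2 to day 4 (SE 0.14, edgeR adjusted p = 0.0113). Over 4 days it rose by 0.60 (SE 0.14, edgeR adjusted p = 0.00277). The late rise was not called without day 2 replicate 1 (0.50, edgeR adjusted p = 0.143), day 2 replicate 2 (0.64, 0.0609) or day 4 replicate 2 (0.42, 0.142), whereas the 4-day rise stayed at an adjusted p of at most 0.0462 under every alternative.

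Abcb10 (NM_019552, chromosome 8 from 123952459 to 123983122) encodes an ATP-binding cassette transporter of the inner mitochondrial membrane that binds and stabilizes mitoferrin 1. It went from 71.1 and 79.9 CPM at day 0 to 248 and 270.4 at day 2 and 367 and 456 at day 4, without overlap between days. The log2FC reached 1.78 by day 2 (SE 0.14, edgeR adjusted p = 1.73e-06), the largest early rise of the 9 genes and 3.43-fold. From day 2 to day 4 it was 0.67 (SE 0.13, edgeR adjusted p = 0.00408), which was not called without day 2 replicate 1 (0.60, edgeR adjusted p = 0.0836) or day 4 replicate 2 (0.50, 0.0579). Over 4 days Abcb10 rose 5.45-fold (log2FC 2.45, SE 0.14, edgeR adjusted p = 1.1e-07), close to the 5.61-fold rise of its partner Slc25a37.

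Slc25a38 (NM_144793, chromosome 9 from 120110374 to 120124504), a mitochondrial carrier that supplies glycine to the first step of heme synthesis, went the other way. It fell from 43.4 and 47.9 CPM at day 0 to 34.1 and 38.3 at day 2 and 28.1 and 24.7 at day 4, without overlap between days. Over 4 days its log2FC was -0.79 (SE 0.12, edgeR adjusted p = 0.000144), and between -0.88 and -0.71 with single libraries left out. The steps were -0.33 (edgeR adjusted p = 0.0323) and -0.46 (edgeR adjusted p = 0.0174). The early step was not called with scaling by total counts (-0.14, edgeR adjusted p = 0.364) or without day 0 replicate 2 (-0.27, 0.0616), day 2 replicate 1 (-0.25, 0.234) or day 2 replicate 2 (-0.42, 0.0671). The late step was not called without day 2 replicate 1 (-0.54, edgeR adjusted p = 0.0734), day 2 replicate 2 (-0.37, 0.161) or day 4 replicate 2 (-0.37, 0.173).

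Slc40a1 (NM_016917, chromosome 1 from 45908068 to 45925582), which encodes ferroportin, the iron exporter of the plasma membrane, rose by day 2 and was lower again at day 4. It had 14.1 and 11.6 CPM at day 0, 32.4 and 29.9 at day 2, and 22.4 and 25.1 at day 4, and no days overlapped. Its log2FC was 1.27 by day 2 (SE 0.14, edgeR adjusted p = 1.58e-05), a 2.42-fold rise, and 0.89 over the 4 days (SE 0.14, edgeR adjusted p = 0.000129). In the main fit the fall from day 2 to day 4 was near the threshold (-0.39, SE 0.13, edgeR adjusted p = 0.0457). The fall stayed called with just these days fitted (-0.39, edgeR adjusted p = 0.00511), with total counts (-0.47, 0.0207) and with no filter (-0.39, 0.02). It was not called with RLE scaling factors (edgeR adjusted p = 0.0502), with the replicate number as a block (0.0575), or without day 2 replicate 1 (-0.33, 0.277), day 2 replicate 2 (-0.45, 0.126), day 4 replicate 1 (-0.31, 0.22) or day 4 replicate 2 (-0.48, 0.104).

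**Figure D2:**
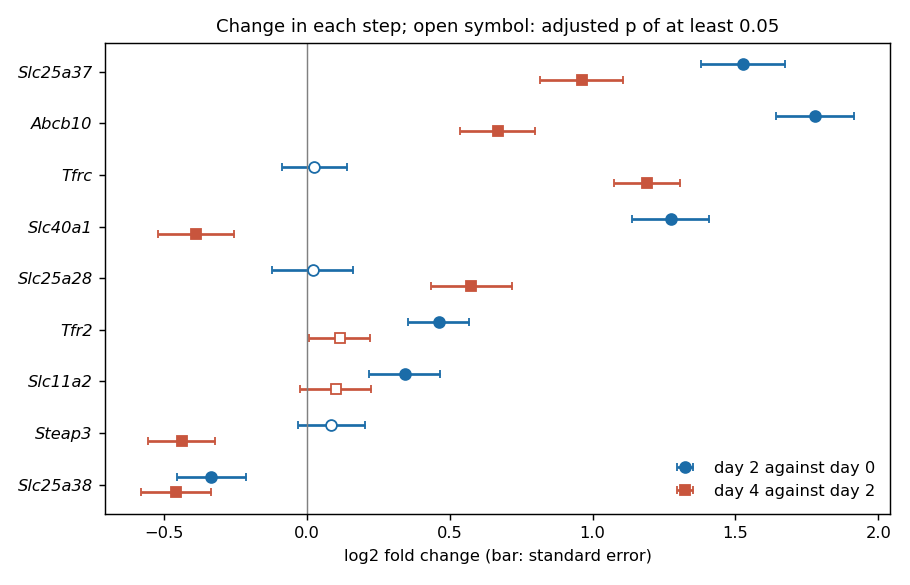
Log2FC of each gene (horizontal axis, bars of 1 SE) from day 0 to day 2 (blue circles) and from day 2 to day 4 (red squares), with open symbols where the edgeR adjusted p was at least 0.05. Abcb10 (1.78), Slc25a37 (1.53) and Slc40a1 (1.27) had the largest early changes, and Tfrc (1.19) and Slc25a37 (0.96) had the largest late changes, in reverse order without day 4 replicate 2 (1.11 and 1.15).

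The 2 steps were compared within the same fit by subtracting the early from the late log2FC. This difference was called for 3 of the 9 genes, against 30.0% of all tested transcripts (13.1% higher, 16.9% lower). Tfrc rose more in the late step (difference 1.17, SE 0.20, edgeR adjusted p = 0.00228), whereas Abcb10 rose more in the early step (-1.11, SE 0.22, edgeR adjusted p = 0.00485). For Slc40a1 the difference was -1.66 (SE 0.22, edgeR adjusted p = 0.000576) and stayed called under every alternative (adjusted p at most 0.0266). Slc25a37 was not shown to differ between the steps (-0.56, edgeR adjusted p = 0.106), nor was Slc25a28 (0.56, edgeR adjusted p = 0.112). The same held for Tfr2 (-0.35, edgeR adjusted p = 0.172), Steap3 (-0.52, 0.0723), Slc11a2 (-0.24, 0.423) and Slc25a38 (-0.12, 0.687). A timing particular to 1 step is thus not shown for them. With total counts, the differences of Tfr2 (-0.63, edgeR adjusted p = 0.0206) and Steap3 (-0.81, 0.00891) were called. That of Steap3 was also called without day 0 replicate 1 (-0.49) or day 0 replicate 2 (-0.56). The same was true of Tfr2 without day 0 replicate 2 (-0.44) and of Slc11a2 without day 0 replicate 1 (-0.43). The Slc25a37 difference was called with total counts (-0.84, edgeR adjusted p = 0.0233), with no filter (-0.58, 0.0306), and without day 0 replicate 2 (-0.64, 0.0372) or day 4 replicate 1 (-0.79, 0.036). That of Slc25a28 was called without day 0 replicate 2 (0.72, edgeR adjusted p = 0.0082). The number called rested on single libraries: it was 1 without day 2 replicate 1 or without day 2 replicate 2, 5 without day 0 replicate 1 and 7 without day 0 replicate 2, and it was 6 with total counts. Without the former 2 libraries Tfrc gave 1.15 and 1.17 (edgeR adjusted p = 0.0658 and 0.0576) and Abcb10 gave -1.24 and -0.99 (0.0559 and 0.0926).

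Levels of different genes were compared as CPM per kilobase of transcript, using the length of the matched GENCODE transcript. At day 0, Tfrc was highest at 51.2 ± 1.51 (SD, n = 2 replicates) and Slc40a1 lowest at 3.82 ± 0.519. Slc25a28 (25.5 ± 4.18) and Slc25a38 (25.5 ± 1.77) overlapped at day 0, and Slc25a37 ranked 7 of the 9 at 10.2 ± 0.725. Slc25a28, at rank 2 (22.6 and 28.5), also overlapped at day 0 with Tfr2, at rank 4 (20.5 and 23.3). At day 2, Abcb10 was highest at 60.2 ± 3.66, above Tfrc at 52.1 ± 0.251, and Tfr2 (30.1 ± 1.56) and Slc25a37 (29.2 ± 3.0) overlapped. At day 4 the order began with Tfrc (119 ± 9.26), Abcb10 (95.6 ± 14.6) and Slc25a37 (56.9 ± 11.4), and ended with Slc25a38 (14.7 ± 1.32), Slc40a1 (7.05 ± 0.574) and Steap3 (6.27 ± 0.724), of which the last pair overlapped. With 2 libraries a day, other neighbors in the order did not overlap, but an exact permutation test of such a pair cannot fall below p = 0.333.

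**Figure D3:**
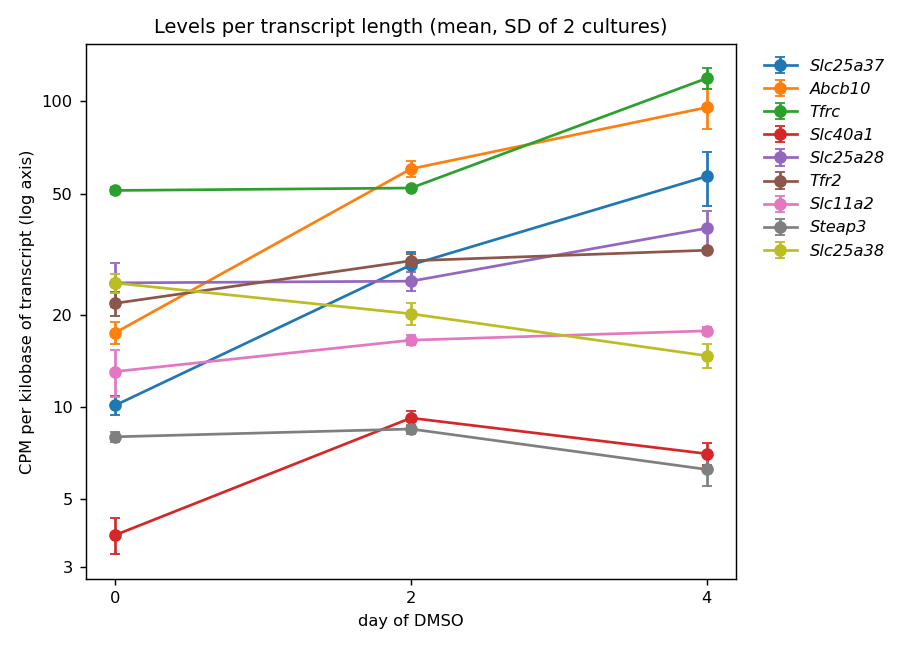
CPM per kilobase of transcript (log axis) of the 9 genes on days 0, 2 and 4, as mean and SD of 2 replicates. Slc25a37 moved from rank 7 to rank 3 (10.2 to 56.9) and crossed Slc25a28 (25.5 to 38.5) by day 2, while Slc25a38 dropped from 25.5 to 14.7.

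The balance within both pairs of related genes is given as ratios of counts per kilobase in each library. Slc25a37 to Slc25a28 was 0.338 and 0.473 at day 0, 1.10 and 1.16 at day 2, and 1.87 and 1.16 at day 4. Per kilobase, mitoferrin 2 transcripts were thus the more abundant in both day 0 libraries and mitoferrin 1 transcripts in all 4 later libraries, with the day 4 replicates far apart. Without division by length the day 0 ratios were 0.920 and 1.29, so the day 0 order turned in replicate 2. Tfrc to Tfr2 was 2.55 and 2.15 at day 0, 1.79 and 1.67 at day 2, and 3.49 and 3.81 at day 4, lowest in the day 2 libraries. The ratios depend on the transcript lengths used and were not tested.

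**Figure D4:**
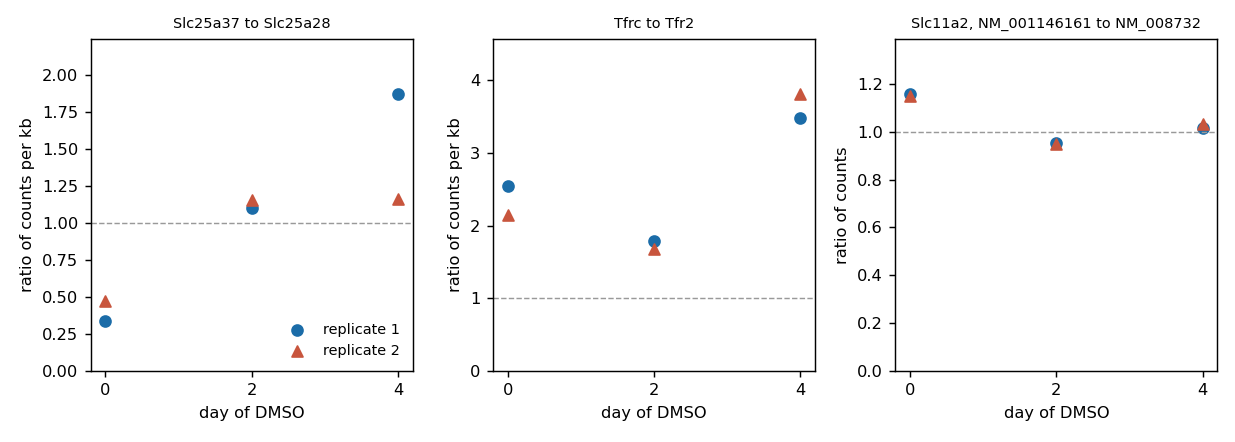
Ratio in each library (circle, replicate 1; triangle, replicate 2) on days 0, 2 and 4 of Slc25a37 to Slc25a28 and of Tfrc to Tfr2, in counts per kilobase, and of the counts of the Slc11a2 transcripts NM_001146161 and NM_008732, with a dashed line at a ratio of 1. Slc25a37 to Slc25a28 crossed the line between day 0 (0.338 and 0.473) and day 2 (1.10 and 1.16), and the Slc11a2 ratio was below it at day 2 only (0.954 and 0.948).

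The genes with the pattern nearest to Tfrc and Slc25a37 were sought among 8894 others whose mean log2 CPM reached 3, by the root mean square distance of centered log2 CPM over the 6 libraries. Nearest to Tfrc were Chpf2 (distance 0.11 on the log2 scale), Mapk8ip3 (0.12) and Atg9a (0.13). Nearest to Slc25a37 were Tmcc2 (0.12), Gadd45g (0.15) and Sfxn3 (0.15), with log2FCs over 4 days of 2.30, 2.47 and 2.56. None of the other 8 members of the set was among the 3 nearest to either.

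The wider setting is given by 47 other iron genes in 4 groups, of which 34 were tested. For day 4 against day 0, 25 of the 34 were called, 17 higher and 8 lower, with a median log2FC of 0.24, where 72.3% of all tested transcripts were called. By day 2, 24 were called (14 higher, 10 lower), against 63.4%, and from day 2 to day 4, 10 were called (8 higher, 2 lower), against 31.0%. The last count fell to 3 without day 2 replicate 1 and to 6 without day 4 replicate 2. The 4-day counts of the single groups below stand against the same 72.3%.

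Among 14 genes of receptor trafficking and endosomes, 12 were tested and 8 were called over 4 days, 5 higher and 3 lower. Dnm2, the dynamin that pinches off endocytic vesicles, rose by 1.15 (SE 0.12, edgeR adjusted p = 6.24e-06) and Rab12, a GTPase that sends the transferrin receptor toward lysosomes, by 1.06 (edgeR adjusted p = 1.7e-05). Ndfip1, an adaptor for the ubiquitin ligases that act on DMT1, rose by 0.99, and the retromer subunit Vps35 fell, at -0.92. Exoc6, the exocyst subunit mutated in the hemoglobin-deficit mouse, was lower at -0.66 (edgeR adjusted p = 0.00017). Transferrin itself (Trf) had 5 counts over the 6 libraries and Hfe had 0, and neither was tested.

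Of 10 other importers and reductases, 6 were too low to test, among them Steap1 with 2 counts in all and Steap2 and Steap4 with 0. Steap3 was therefore the only STEAP gene with more than 2 counts in these libraries. The duodenal reductase Cybrd1 rose by 2.59 (SE 0.25) from a low level of 0.515 and 0.463 CPM at day 0 to 3.19 and 2.72 at day 4. Slc22a17, the lipocalin receptor, rose by 1.88, and the metal importer Slc39a8 by 0.77, whereas Slc39a14 changed by 0.05 (edgeR adjusted p = 0.717).

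Of 11 mitochondrial partners, 10 were tested and 8 were called over 4 days, 5 higher and 3 lower. Alas2, the erythroid enzyme of the first step of heme synthesis, rose by 4.21 and Fech, the ferrochelatase, by 1.90, and the porphyrin transporter Abcb6 rose by 1.25. The transporter Abcb8, of the same family as Abcb10 and Abcb6, fell, at -0.997.

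Of 12 genes of storage, export and regulation, 8 were tested and 6 were called over 4 days, 4 higher and 2 lower. The ferritin chain genes Fth1 and Ftl1 rose by 0.98 and 0.65 (edgeR adjusted p = 3.79e-05 and 0.006), though ferritin genes have near-identical pseudogenes and their levels are uncertain. The Fth1 transcript with the highest mean count, which gave its value, is listed by RefSeq as noncoding. The iron chaperone Pcbp1 fell, at -0.72, as did Ncoa4, the receptor that delivers ferritin to lysosomes, at -0.44. The iron regulatory protein gene Aco1 changed by 0.12 (edgeR adjusted p = 0.421), and Ireb2 rose by 0.25 (edgeR adjusted p = 0.0498). Fbxl5, the ligase subunit that degrades the latter protein, rose by 0.61. The ferroxidases Heph, Hephl1 and Cp, partners of ferroportin elsewhere, had 1, 1 and 21 counts in total and hepcidin (Hamp) had 3.

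**Figure D5:**
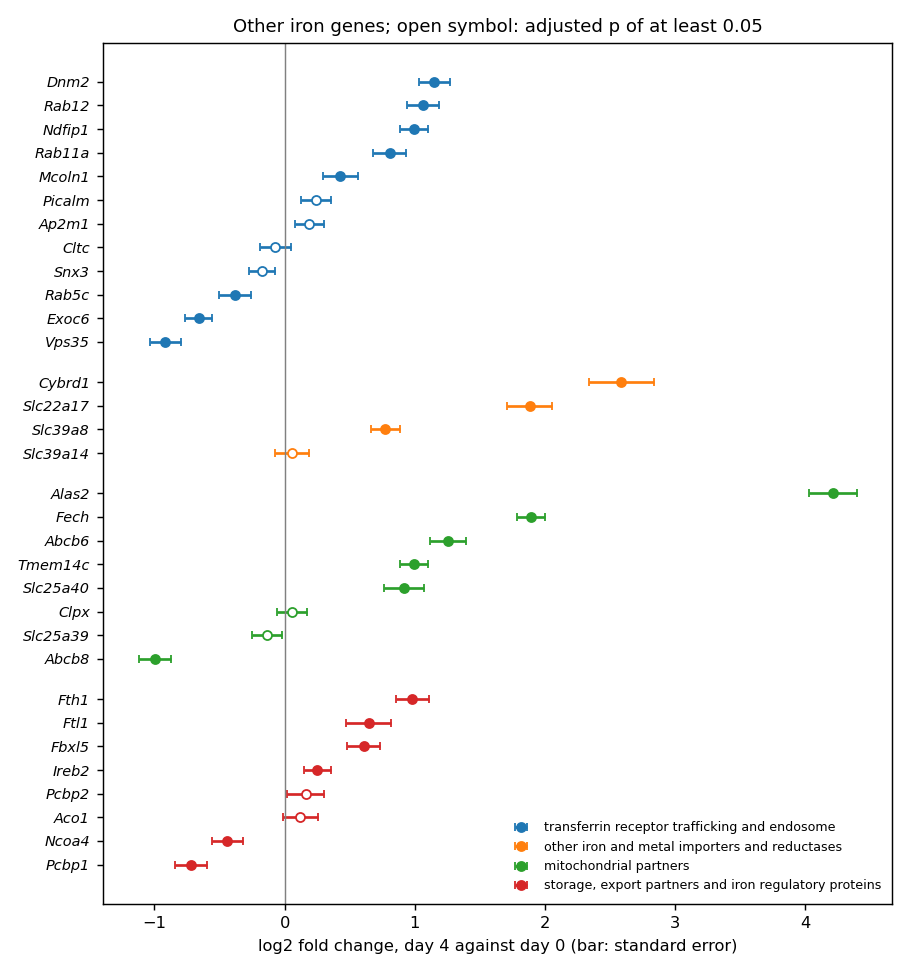
Log2FC for day 4 against day 0 (horizontal axis, bars of 1 SE) of 32 tested genes of the 4 groups of other iron genes, colored by group, with open symbols where the edgeR adjusted p was at least 0.05. Not all of the 34 tested genes are plotted. Among the plotted genes, Alas2 (4.21) and Cybrd1 (2.59) lie farthest to the right and Abcb8 (-0.997) farthest to the left.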

How the data were processed

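The authors trimmed adapters with cutadapt, aligned reads to mm10 (GRCm38) with TopHat and deposited raw counts per RefSeq transcript, without normalization or pooling. The submitters' processing notes also name HTSeq and DESeq2. TopHat was run with the library type fr-secondstrand. The strand setting of the HTSeq counting, its treatment of overlapping transcripts and its annotation release are not given in the sources used here. In GENCODE, exons of opposite-strand genes overlap 10.3% of the Abcb10 transcript (Gm45890), 9.13% of Slc25a37 (Gm31748) and 0.929% of Slc11a2 (Gm5475), and such reads cannot be told apart. Lines that name no transcript (no_feature, 50.5% to 58.4% of listed reads) were left out.

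Symbols came from RefSeq (GRCm38.p6) for 32199 of 32654 transcripts and from GENCODE M21 for 187. Counts were tested with edgeR 4.0.16 (R 4.3.3; TMM, filterByExpr, 1 quasi-likelihood fit of 6 libraries with a mean per day, 18351 transcripts, Benjamini-Hochberg adjustment). Standard errors are the size of the log2FC over the root of its F statistic. Alternatives were DESeq2 1.42.0, RLE or no scaling factors, globin transcripts left out of scaling, no filter, fits of just the 2 days in question, a block for replicate number, 1 transcript per gene, a gene's second transcript and leaving out each library. The fit was also run on simulated counts in which few transcripts changed. That run does not give the error rate where changes are widespread.

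Genes named are the 9 members and the 3 nearest in pattern to Tfrc and Slc25a37. From each group, up to 4 called genes with the largest 4-day changes were named, leaving aside genes not reported here by name. Other genes were named with their values known. The members and lists were chosen with earlier results of these data known. In the main fit, each p-value sets a change against the spread between replicates, pooled over all days with 2 replicates per day and moderated across transcripts. The replicates did not differ equally on each day. On raw counts, their chi-square per degree of freedom was 60.34 at day 0, 10.75 at day 2 and 16.94 at day 4. The pooled spread thus does not describe each day alone. With just days 2 and 4 fitted, the adjusted p of Steap3 for this step was 0.00197, of Slc25a38 0.00183 and of Slc25a28 0.000488 (edgeR). Some listed genes are counted in their groups but not reported here by name.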

Additional observations from a re-analysis of the deposited data

How the results depend on the processing

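Under every alternative, Slc25a37, Abcb10, Slc40a1 and Tfr2 stayed called by day 2, Tfrc and Slc25a37 from day 2 to day 4, and all members but Steap3 and Slc11a2 over 4 days. Leaving out single libraries, the members called numbered 4 to 6 by day 2, 2 to 7 from day 2 to day 4 and 8 to 9 over 4 days, and 1 to 7 for the difference between the steps (6 with total counts). The other iron genes called from day 2 to day 4 numbered 3 to 14. With 5 libraries, the lone replicate of a day was assumed to vary like the others. Uncalled values turned sign for Tfrc by day 2 (-0.0026 with RLE factors and with DESeq2, -0.011 to 0.056 with libraries left out), Slc25a28 by day 2 (-0.0096 with RLE, -0.0099 with DESeq2, -0.15 to 0.20 with libraries left out), the second Slc11a2 transcript from day 2 to day 4 (-0.0035) and Slc25a38 for the difference between the steps (-0.29 to 0.046 with libraries left out). The causes were not tested. Without division by length, Slc25a37 to Slc25a28 averaged 1.10, 3.07 and 4.11 and Tfrc to Tfr2 3.88, 2.85 and 6.02 on days 0, 2 and 4. Differences between same-numbered replicates correlated by 0.0316 to 0.0791 between days, so the numbers were not taken to pair the libraries. With the replicate number as a block, 6, 6 and 9 members were called by day 2, from day 2 to day 4 and over 4 days, and the call of Slc40a1 from day 2 to day 4 (-0.38) was the one lost.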
